A study of Mus musculus with 24 samples.

Results

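This account concerns the response of NIH-3T3 cells to interferon-alpha (IFN-alpha) after 1 h. Its members are the 4 arrays of cells given IFN-alpha for 1 h and the 4 arrays of mock cells at 1 h that carried the same label, 8 of the 24 arrays in the series, compared over 19305 of 45037 probe sets. The arrays were chosen by their labels, and a probe set was kept where its signal exceeded log2 4, taken here as background, on at least 3 of the 24 arrays. NIH-3T3 is an immortalised mouse embryonic fibroblast line, used here at passages 5 to 15 after thawing. Cells were split 24 h before the start, stood at about 80% confluency, and received fresh warmed medium with IFN-alpha at 100 U/ml, or the same medium without interferon. Serum was at 5% in both groups. Both groups were also labelled with 200 uM 4-thiouridine (4sU), a uridine analog that cells incorporate as they transcribe, throughout the 60 min. Total cellular RNA was hybridised to 1-colour Affymetrix arrays, so the values are levels of all RNA and not of new RNA alone. They are GCRMA signals, a per-probe-set summary on the log2 scale, and every level or difference below is in log2 units unless it is called a fold. For comparison, 4 arrays held cells given IFN-gamma (100 U/ml) at 1 h with the same label, 3 held IFN-alpha and 3 mock cells at 3 h with 500 uM 4sU from 150 to 180 min, and 3 held mock cells at 1 h without 4sU. Between 1 h and 3 h the dose of 4sU and its window differed as well as the time, and their parts cannot be told apart.

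IFN-alpha is a type I interferon, a cytokine that infected cells release and that nearly every cell type can sense. Its receptor activates the kinases Jak1 and Tyk2, which phosphorylate STAT proteins. Joined to Irf9, a STAT heterodimer forms the complex ISGF3, which binds interferon-stimulated response elements (ISREs) in promoters. STAT dimers without Irf9 bind another element, the GAS site, which is the main target of IFN-gamma signalling. Genes that respond without new protein synthesis are known as primary interferon-stimulated genes, and some of their products, such as Irf1, Irf9 and the inhibitors Usp18 and Socs3, alter the later response.

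The promoter windows of 7 genes that rose are shown here because they hold letters of one or both elements. Each is the RefSeq window of 250 bases before to 50 after the start on the GRCm38.p6 build, read 5′ to 3′ on the gene's strand. Capitals mark the ISRE core (GAAANNGAAA, on either strand) and the GAS core (TTCNNNGAA, a palindrome).
Ifit1, chr19:34640639-34640938, forward strand: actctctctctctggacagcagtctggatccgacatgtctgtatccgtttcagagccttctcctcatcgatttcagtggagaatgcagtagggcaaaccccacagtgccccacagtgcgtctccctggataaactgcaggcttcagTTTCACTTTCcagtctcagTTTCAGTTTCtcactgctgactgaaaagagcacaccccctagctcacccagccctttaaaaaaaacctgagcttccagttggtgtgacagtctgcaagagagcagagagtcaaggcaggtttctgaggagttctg
Ifit3, chr19:34583279-34583578, forward strand: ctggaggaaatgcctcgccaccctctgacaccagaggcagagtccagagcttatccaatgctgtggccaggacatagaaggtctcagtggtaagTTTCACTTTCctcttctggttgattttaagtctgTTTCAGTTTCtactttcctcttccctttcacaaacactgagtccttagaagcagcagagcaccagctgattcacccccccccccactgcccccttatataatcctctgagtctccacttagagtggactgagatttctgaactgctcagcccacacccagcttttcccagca
Cxcl10, chr5:92348840-92349139, reverse strand: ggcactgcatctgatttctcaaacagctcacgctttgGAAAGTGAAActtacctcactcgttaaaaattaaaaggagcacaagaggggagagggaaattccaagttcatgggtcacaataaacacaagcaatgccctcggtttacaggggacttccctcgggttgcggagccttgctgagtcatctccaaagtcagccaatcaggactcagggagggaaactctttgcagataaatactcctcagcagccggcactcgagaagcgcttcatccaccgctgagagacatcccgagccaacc
Irgm2, chr11:58214727-58215026, forward strand: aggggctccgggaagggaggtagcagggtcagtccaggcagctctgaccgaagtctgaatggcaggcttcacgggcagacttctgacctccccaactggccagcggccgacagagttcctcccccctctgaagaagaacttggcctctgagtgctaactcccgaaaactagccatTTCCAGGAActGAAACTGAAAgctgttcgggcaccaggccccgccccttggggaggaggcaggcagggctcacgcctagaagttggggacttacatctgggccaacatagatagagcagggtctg
Igtp, chr11:58199306-58199605, forward strand: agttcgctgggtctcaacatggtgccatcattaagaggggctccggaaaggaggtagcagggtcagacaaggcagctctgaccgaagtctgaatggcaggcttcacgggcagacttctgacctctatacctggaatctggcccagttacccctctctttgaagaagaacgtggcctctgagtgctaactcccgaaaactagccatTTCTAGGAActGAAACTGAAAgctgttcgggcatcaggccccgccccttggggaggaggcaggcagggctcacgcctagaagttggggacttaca
Irf1, chr11:53769764-53770063, forward strand: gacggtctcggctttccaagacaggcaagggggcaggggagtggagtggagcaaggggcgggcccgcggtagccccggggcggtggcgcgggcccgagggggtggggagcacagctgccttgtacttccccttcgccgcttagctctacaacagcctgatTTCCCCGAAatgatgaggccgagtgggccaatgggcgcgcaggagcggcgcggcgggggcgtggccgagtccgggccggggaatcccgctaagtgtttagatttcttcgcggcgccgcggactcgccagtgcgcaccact
Socs3, chr11:117969317-117969616, reverse strand: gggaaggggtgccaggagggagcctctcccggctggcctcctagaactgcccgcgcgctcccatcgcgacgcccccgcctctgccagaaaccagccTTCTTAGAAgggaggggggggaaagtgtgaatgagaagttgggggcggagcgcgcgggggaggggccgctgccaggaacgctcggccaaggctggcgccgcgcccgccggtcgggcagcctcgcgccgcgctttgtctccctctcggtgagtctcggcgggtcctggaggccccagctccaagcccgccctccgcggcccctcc
Ifit1 and Ifit3, neighbours on chromosome 19, each held 2 ISRE cores, and Cxcl10 on chromosome 5 held 1. Irgm2 and Igtp, neighbours on chromosome 11, each held a GAS core and, after 2 further bases, an ISRE core. Irf1 and Socs3, also on chromosome 11, each held a single GAS core, while a second RefSeq window of Irf1 and the windows of Bcl3 and Stat3 held neither core. Of 44 genes called higher, 36 had a window in the RefSeq table, and 12 of the 36 (33.33%) held an ISRE core, compared with 3.61% of the 7724 genes tested that have a window. A GAS core was in 8 of the 36 (22.22%), compared with 7.86% of the genes tested, and 3 genes held both. A match of these letters is a description and not a binding site, and a window without a match says nothing about sequence outside it.

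After 1 h of IFN-alpha 66 probe sets were higher than in mock cells (0.342% of the 19305 tested) and 1 was lower (0.00518%), at a Benjamini-Hochberg adjusted p under 0.05 in limma with the replicate number as a block. The fit also took in the 4 IFN-gamma arrays at 1 h, so each SE and p at 1 h rests on the spread of 12 arrays. On the 8 arrays alone, with the block, 40 probe sets were called higher. The 66 included 51 with a single gene symbol, which covered 44 genes, and 15 that are counted but not named. All 66 were higher in each of the 4 same-numbered pairs, whereas 4.68% of all tested probe sets were. For 54 of the 66 every IFN-alpha array lay above every mock array, as for 0.508% of all tested, but the 66 were chosen on that same difference. The difference reached 2-fold for 54, 4-fold for 24 and 8-fold for 11 of them on the scale of the deposited values. The mock mean lay below background for 17, and with lower mock values raised to log2 4 in these the counts were 47, 16 and 8. The 66 had a median log2 difference of 1.79, against -0.01 among all tested. At an unadjusted p under 0.05 there were 513 higher and 751 lower probe sets, 1264 in all, where 965 would be expected if nothing differed. The median log2 difference of the 66 was 1.74, 1.93, 1.39 and 1.97 in pairs 1 to 4. Without the block, 20 probe sets were called higher on the same 12 arrays and 50 on all 24. The 10 genes Cxcl10, Irgm2, Igtp, Ifit3, Irgm1, Irf1, Irf9, Helz2, Socs3 and Il6 were called under every alternative setting tried, and of the 38 named genes that rose 22 kept the call without any single array of the 8.

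**Figure D1:**
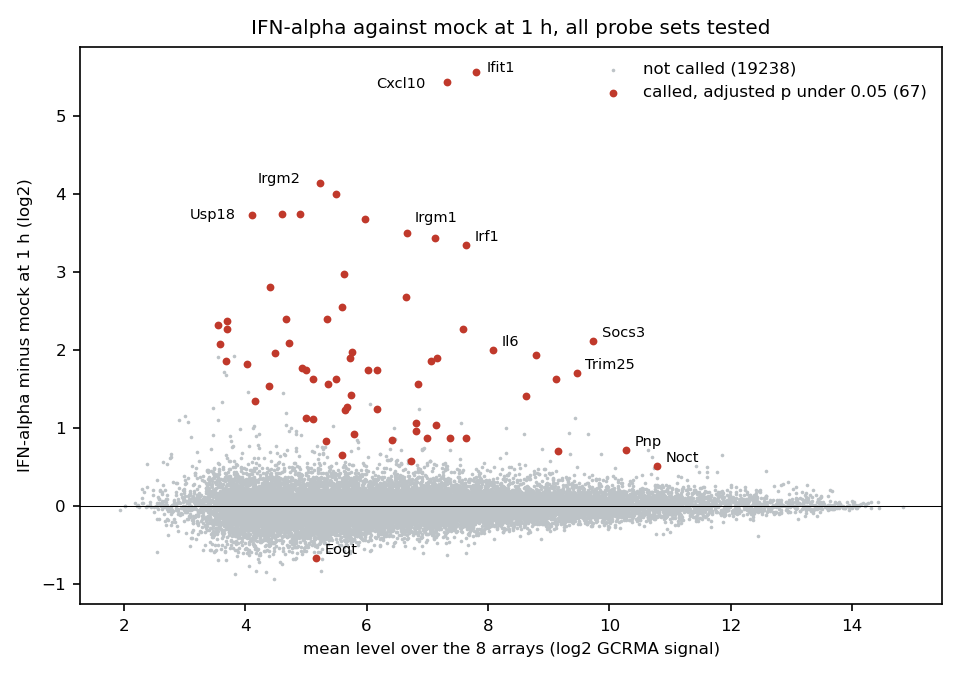
Each point is 1 of 19305 probe sets, with its mean level over the 8 arrays (log2 GCRMA signal) on the x axis and the log2 difference IFN-alpha minus mock at 1 h on the y axis; red marks the 67 called. Ifit1 and Cxcl10 lie highest, at 5.56 and 5.43, and Eogt is the single red point below 0.

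Replicate 2 stands apart in RNA quality. The excess of the 3′ over the 5′ beta-actin signal was 3.09 in IFN-alpha replicate 2 and 2.99 in mock replicate 2, and 0.84 to 1.37 on the other 6 arrays of these groups. Without replicate number 2, 46 probe sets were called higher, 45 of them among the 66. Fibroblast markers were abundant (12 of 12 above background, median level 12.5 in log2, with the intermediate filament gene Vim highest at 13.9), while 14 of 15 leukocyte markers and 14 of 14 epithelial and endothelial markers lay below background. The signals of the leukocyte markers, summed on the linear scale and then taken as log2, came to 6.77 to 7.08 on IFN-alpha arrays and 6.77 to 7.17 on mock arrays. In RNA from whole cultures, a rise in all cells and a larger rise in some cells cannot be told apart.

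Of the receptor chain and its signalling partners, 1 of 15 measured genes rose, Irf9, and none fell. Irf9, the DNA-binding subunit of ISGF3, had log2 levels of 6.97, 7.01, 6.84 and 7.67 on the IFN-alpha arrays 1 to 4 and 3.87, 4.53, 3.55 and 4.64 on the mock arrays. All IFN-alpha arrays lay above all mock arrays, a difference of 2.98 ± 0.14 (SE of the fit on 12 arrays, adjusted p = 9.39e-06). On the 8 arrays of the 4 pairs alone the adjusted p of Irf9 was 0.00107. The receptor chains Ifnar1 and Ifnar2 differed by -0.11 ± 0.12 and 0.12 ± 0.09 and the kinases Jak1 and Tyk2 by 0.02 ± 0.09 and -0.11 ± 0.19, and none passed. Stat2, the ISGF3 subunit that carries the activation domain, had log2 levels of 4.24, 2.81, 3.94 and 5.41 on IFN-alpha arrays, against 3.04, 2.66, 3.21 and 3.08 on mock arrays. Its groups overlapped and the difference of 1.10 ± 0.32 did not pass (adjusted p = 0.514).

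Among 9 interferon regulatory factors, Irf1 and Irf9 rose and 7 did not pass. Irf1, a transcription factor that can itself drive interferon-stimulated genes, had 9.34, 9.26, 9.19 and 9.45 on the IFN-alpha arrays, against 5.82, 6.52, 5.50 and 6.01 on the mock arrays. The IFN-alpha arrays lay close together and well above every mock array, and the difference was 3.35 ± 0.21 (10.2-fold, adjusted p = 8.02e-05). Irf7, which amplifies interferon production, had 2.57, 2.51, 2.50 and 3.51 against 2.51, 2.51, 2.51 and 2.49, with all but IFN-alpha replicate 4 near the lowest values on the arrays (0.27 ± 0.18, adjusted p = 0.821). At 3 h Irf7 was higher by 4.28 (adjusted p = 4.99e-08).

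Of 16 feedback inhibitors measured 2 rose, Usp18 and Socs3. Usp18 removes the ubiquitin-like protein ISG15 from its targets and blocks signalling at the type I receptor. It had 6.20, 5.96, 4.59 and 7.14 on IFN-alpha arrays, against 2.21, 2.31, 2.24 and 2.21 on mock arrays, which were all below background. The log2 difference was 3.73 ± 0.35 (adjusted p = 0.000768), at least 3.93-fold against the background level, to which lower mock values are raised wherever a fold is written "at least" below. Socs3, which inhibits receptors that share gp130, had 10.94, 11.02, 10.78 and 10.44 against 8.44, 9.0, 8.80 and 8.48 and differed by 2.12 ± 0.13 (4.33-fold, adjusted p = 8.02e-05) with no overlap. Its 2 further probe sets differed by 1.94 and 2.55 and were called as well. Socs1, the inhibitor of Jak kinases, was higher on IFN-alpha replicate 4 than elsewhere (3.03, 2.23, 2.88 and 4.29, against 2.65, 2.25, 2.24 and 2.66 on mock arrays) and did not pass (0.66 ± 0.51, adjusted p = 0.837).

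Of 14 Ifit, Oas, Mx and viperin effectors, which act directly on viral RNA or particles, 5 rose and 9 did not pass, with a median log2 difference of 0.97. Ifit1, which binds viral RNA caps that lack methylation, had 10.29, 11.42, 9.02 and 11.59 on IFN-alpha arrays, against 4.19, 7.27, 4.40 and 4.22 on mock arrays. The groups did not overlap, and mock replicate 2 stood far above the other mock arrays, as did replicate 2 of the mock cells without 4sU (4.54, 7.18 and 4.82). The difference was 5.56 ± 0.56 (47.1-fold, adjusted p = 0.00126), and 6.03 without replicate number 2. Without the block on the 12 arrays the adjusted p was 0.147. Ifit3, its partner in the same gene cluster, had 6.82, 8.23, 6.88 and 9.30 against 3.70, 4.38, 4.08 and 4.37 and differed by 3.67 ± 0.28 (12.8-fold, adjusted p = 0.000191). Ifit2, from the same family, had 8.63, 8.76, 8.42 and 8.95 against 8.26, 8.56, 8.35 and 8.46, with overlapping groups and no call (0.28 ± 0.10, adjusted p = 0.679).

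The antiviral GTPase Mx2 and Oasl2, an oligoadenylate synthetase that activates the RNA-degrading enzyme RNase L in mice, rose, with mock levels below background. Mx2 had 3.95, 5.97, 4.37 and 5.05 on IFN-alpha arrays, against 2.56, 2.58, 2.57 and 2.56 on mock arrays (2.27 ± 0.29, at least 1.78-fold, adjusted p = 0.00776). Oasl2 had 4.94, 5.75, 3.16 and 5.70 against 2.40, 2.87, 2.40 and 2.38 (2.37 ± 0.39, at least 1.85-fold, adjusted p = 0.0399). In both genes the IFN-alpha arrays spread over more than 2 log2 units, and the mock arrays lay close together. The Oasl2 call was lost when any single array other than IFN-alpha replicate 3 was left out (adjusted p up to 0.224), and that of Mx2 without IFN-alpha or mock replicate 4 (up to 0.0528). Mx1, also an Mx GTPase, had 4.42, 6.23, 3.22 and 5.24 on IFN-alpha arrays and 2.87, 3.03, 2.75 and 2.78 on mock arrays and did not pass (1.92 ± 0.39, adjusted p = 0.128). Rsad2 (viperin, which makes a chain-terminating nucleotide) was at 3.01, 7.46, 2.54 and 5.01, against 2.54, 2.78, 2.54 and 2.54, so that 2 IFN-alpha arrays were high and 2 near mock (1.90 ± 0.68, adjusted p = 0.694). Eif2ak2, which encodes the RNA-activated kinase PKR, had 7.50, 6.91, 7.19 and 7.81 against 6.28, 5.95, 6.22 and 6.70 and rose by 1.06 ± 0.10 (adjusted p = 0.000788). Of the nucleic acid sensors and their signalling partners 1 of 15 rose, Ddx58, the RNA sensor RIG-I, by 1.62 ± 0.16 (adjusted p = 0.00108), whereas Ifih1, the sensor MDA5, had 2.35, 2.82, 2.38 and 2.39 against 2.62, 2.57, 2.42 and 2.42, below background on all 8 arrays.

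The p47 GTPases, which attack the vacuoles of intracellular pathogens, had 4 of 5 measured members higher and the highest list median, 3.43. Irgm2 had 7.36, 7.41, 6.58 and 7.85 on IFN-alpha arrays, against 2.84, 3.08, 2.89 and 3.84 on mock arrays, and its difference of 4.14 ± 0.16 (at least 9.86-fold) had the lowest adjusted p of the named genes, 2.82e-06. Igtp had 6.42, 7.60, 6.03 and 7.01 against 2.64, 3.69, 2.89 and 2.89 (3.74 ± 0.27, at least 6.8-fold). Irgm1 had 8.43, 9.17, 8.38 and 9.41 against 5.25, 5.61, 5.51 and 5.31 (3.43 ± 0.22, 10.8-fold). In each the groups stood apart by more than 2 log2 units. Iigp1 rose by 2.80 ± 0.26 (at least 3.52-fold, adjusted p = 0.000813). Ifi47, a p47 GTPase counted in another list, rose by 2.09 ± 0.29 (at least 3.3-fold, adjusted p = 0.0155), and lost its call without IFN-alpha replicate 2, IFN-alpha replicate 4 or mock replicate 2 (adjusted p up to 0.0971). Of 6 guanylate-binding proteins, large GTPases of the same defence, Gbp3 rose by 1.53 ± 0.25 (adjusted p = 0.0399), with overlapping groups and no call without any array numbered 1, 2 or 4 (adjusted p up to 0.191). Gbp2 was called by another probe set (1.24 ± 0.20, adjusted p = 0.0331) and not by the probe set used for the gene here (1.06 ± 0.22, adjusted p = 0.144).

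**Figure D2:**
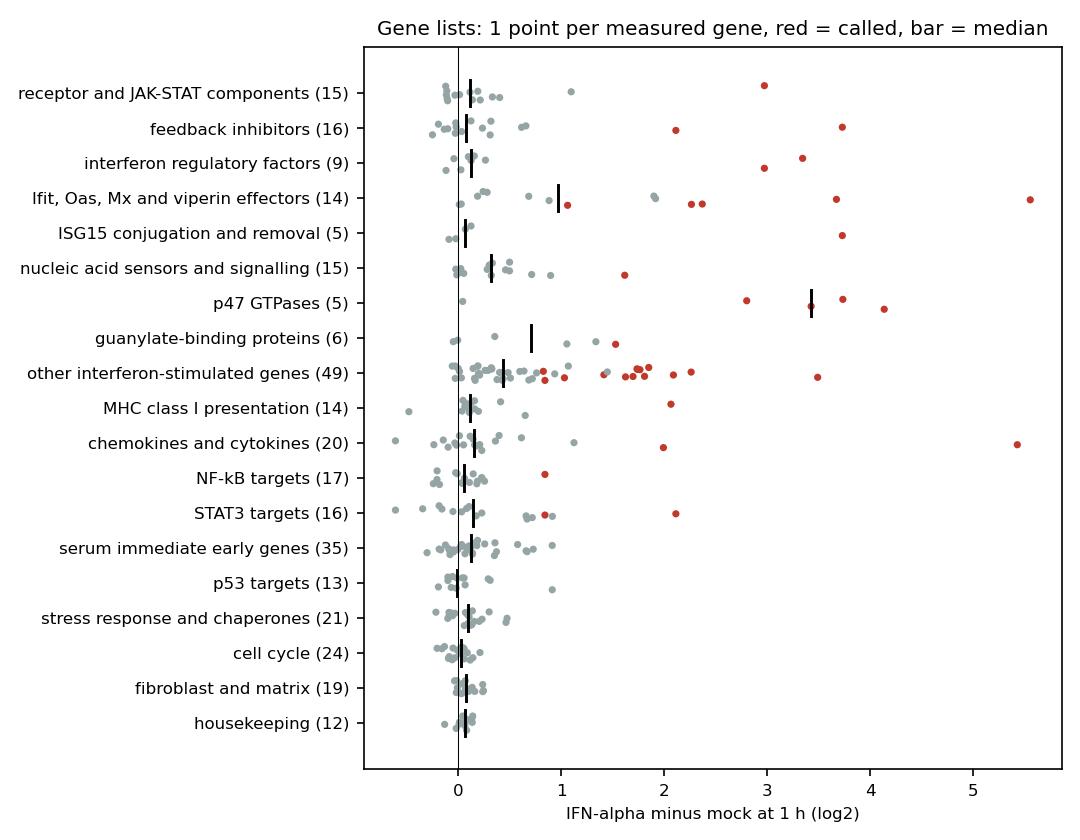
Each row is a gene list with the number of its measured genes in brackets, each point a gene at its log2 difference IFN-alpha minus mock at 1 h, red where called, and the bar the list's median. The p47 GTPases have the highest median, 3.43, and the lists from serum immediate early genes downward hold no red point.

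Among 49 other interferon-stimulated genes 14 rose, none fell and the median log2 difference was 0.44. Rtp4, a receptor transport protein, had 7.95, 9.01, 7.75 and 8.94 on IFN-alpha arrays, against 4.11, 6.56, 4.25 and 4.75 on mock arrays (3.49 ± 0.32, 11.3-fold, adjusted p = 0.000739). Mock replicate 2 was again the highest mock array, and the groups did not overlap. The other kept probe set of Rtp4, with both means below background, differed by 0.48 ± 0.18 and was not called (adjusted p = 0.719). Helz2, a helicase and coactivator, had 8.65, 9.07, 8.09 and 9.04 against 6.11, 6.90, 6.45 and 6.34 (2.26 ± 0.19, 4.8-fold, adjusted p = 0.000422). A trio of ubiquitin and ADP-ribose enzymes lie side by side on chromosome 16 and all rose. They are Parp14 (1.85 ± 0.30, at least 1.52-fold), the ubiquitin ligase Dtx3l (1.74 ± 0.12, 3.35-fold) and its partner Parp9 (1.42 ± 0.22, 2.67-fold), with adjusted p = 0.0399, 9.79e-05 and 0.0308. Dtx3l kept its call without any single array, whereas Parp14 and Parp9 lost theirs without any array except IFN-alpha replicate 3 (adjusted p up to 0.223 and 0.147). Without the block, Dtx3l and Parp9 lost their calls on 12 arrays and on 24 (adjusted p = 0.0664 and 0.0744 on 24). Parp14 lost its call on 12 arrays (0.151) and kept it on 24 (0.00123).

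The ubiquitin ligases Trim25, which activates RIG-I, and Trim21, a cytosolic antibody receptor, rose by 1.70 ± 0.12 (3.25-fold, adjusted p = 0.000146) and 1.77 ± 0.24 (3.4-fold, adjusted p = 0.0137). Trim25 had 10.12, 10.98, 9.77 and 10.38 on IFN-alpha arrays, against 8.54, 9.18, 8.45 and 8.28 on mock arrays, and its 3 probe sets differed by 1.70, 1.63 and 1.56. The torsin Tor3a, an ATPase of the endoplasmic reticulum, rose by 1.74 ± 0.19, Xaf1, a promoter of apoptosis, by 1.63 ± 0.18, and Samd9l, which restrains translation in infected cells, by 1.90 ± 0.21 (adjusted p = 0.00273, 0.0028 and 0.00223). The groups of Xaf1 overlapped, with 4.89 on the lowest IFN-alpha array and 5.56 on the highest mock array. Xaf1 lost its call without the block on 12 and on 24 arrays. Slfn8, of the Schlafen family, rose by 1.81 ± 0.26 (at least 1.9-fold, adjusted p = 0.0205), and the nuclear body protein Daxx by 1.03 ± 0.15 (adjusted p = 0.0227). Trim21 lost its call without IFN-alpha replicate 1 or 2 or mock replicate 1, 2 or 4 (adjusted p up to 0.0922), Slfn8 without IFN-alpha replicate 4 or mock replicate 1, 2 or 4 (up to 0.126), and Daxx without any array except IFN-alpha replicate 3 (up to 0.137). Rnf213, a very large ubiquitin ligase, and Lgals3bp, a secreted glycoprotein, differed by 0.87 ± 0.13 and 0.83 ± 0.14 with overlapping groups. Rnf213 lost its call without any array except IFN-alpha replicate 3 and mock replicate 1 (adjusted p up to 0.147), and Lgals3bp without any array numbered 2, 3 or 4 (up to 0.197). Pnp, which degrades purine nucleosides, rose by 0.71 ± 0.10 and lost its call without any array numbered 1, 2 or 4 (up to 0.112).

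**Figure D3:**
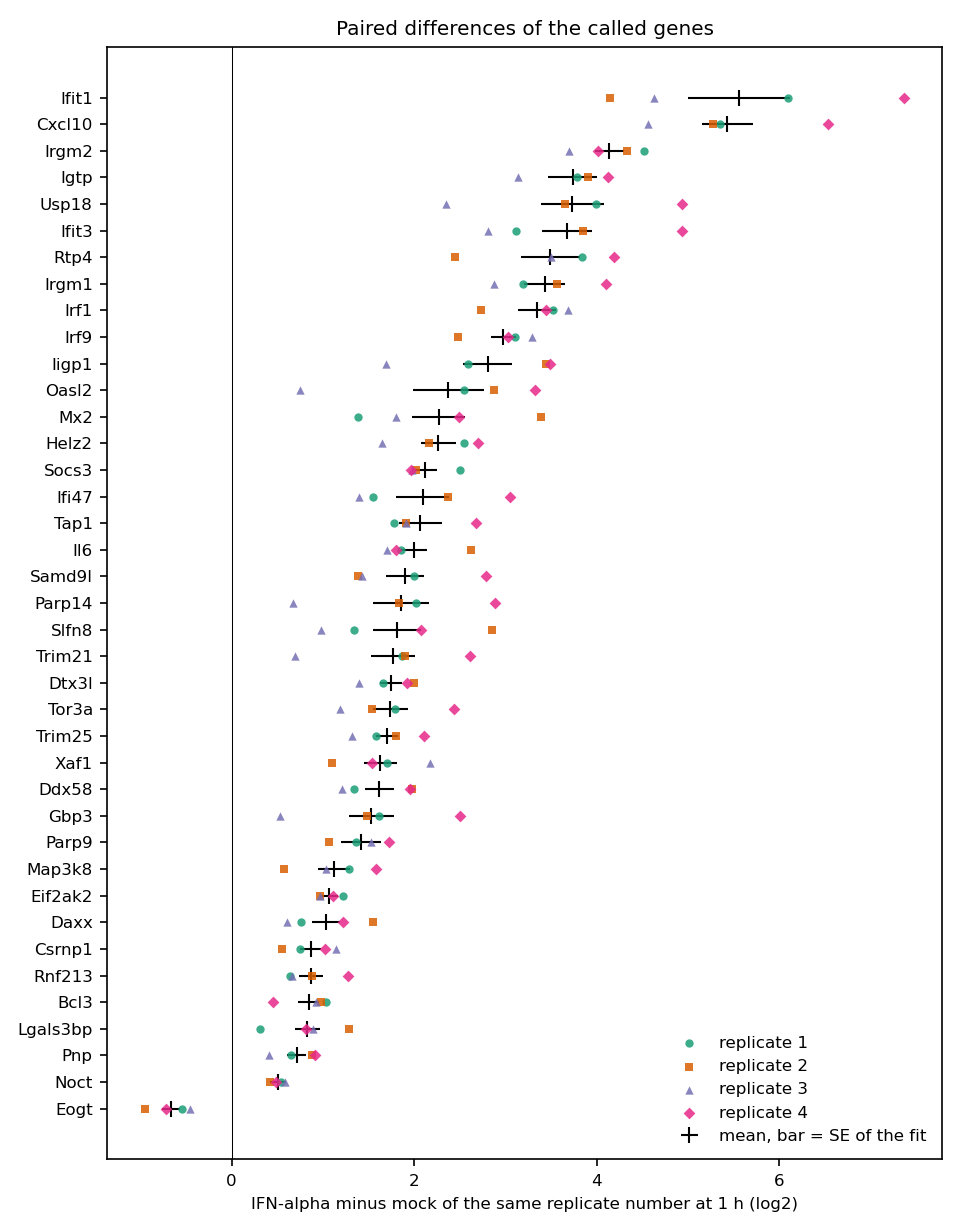
Rows are the 39 named genes called, ordered by their mean difference; coloured points are the log2 differences IFN-alpha minus mock of replicates 1 to 4 and the black tick with its bar the mean and the SE of the fit. Every point lies above 0 except those of Eogt, and replicate 3 is often the lowest point of a row.

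Of 20 chemokines and cytokines, Cxcl10 and Il6 rose and 18 did not pass. Cxcl10, a chemokine that draws activated T cells through the receptor CXCR3, had 9.75, 10.72, 8.93 and 10.77 on IFN-alpha arrays, against 4.39, 5.45, 4.37 and 4.24 on mock arrays. Every IFN-alpha array was far above every mock array, a difference of 5.43 ± 0.28 (43.1-fold, adjusted p = 1.83e-05). Il6, an inflammatory cytokine, had 8.56, 9.16, 9.17 and 9.44 against 6.71, 6.54, 7.47 and 7.64 (1.99 ± 0.15, 3.98-fold, adjusted p = 0.000191). Cxcl9, another CXCR3 ligand, had 2.66, 4.44, 2.53 and 2.62 against 2.43, 2.49, 2.44 and 2.41, with IFN-alpha replicate 2 alone above background (0.62 ± 0.36, adjusted p = 0.82). The monocyte chemokine Ccl7 differed by 1.13 ± 0.23 without passing (adjusted p = 0.131). Lif, a cytokine of the Il6 family, differed by -0.61 ± 0.14 and was lower in all 4 pairs, as were 7.74% of all tested probe sets, also without passing (adjusted p = 0.218). The peptide transporter subunit Tap1 was the 1 of 14 antigen presentation (MHC class I) genes to rise, with 4.87, 3.94, 3.94 and 5.75 on IFN-alpha arrays, against 3.10, 2.03, 2.03 and 3.07 on mock arrays (2.07 ± 0.23, at least 1.54-fold, adjusted p = 0.00289). The class I heavy chain H2-K1 and the light chain B2m differed by 0.16 and 0.10.

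Bcl3, a nuclear partner of NF-kB, was the 1 of 17 NF-kB targets that rose, and with Socs3 made up the 2 of 16 STAT3 targets. It had 7.59, 6.08, 6.49 and 7.22 on IFN-alpha arrays, against 6.56, 5.11, 5.57 and 6.77 on mock arrays. The groups overlapped while each pair differed the same way (0.84 ± 0.11, adjusted p = 0.0112), and the call was lost without IFN-alpha replicate 1 or 2 or mock replicate 1, 2 or 3 (up to 0.076). Map3k8, a kinase upstream of the ERK cascade, rose by 1.12 ± 0.18 (adjusted p = 0.0313), and lost its call without any array except IFN-alpha replicate 2 (up to 0.177). The nuclear protein Csrnp1 rose by 0.87 ± 0.11 (adjusted p = 0.0105), though not without IFN-alpha replicate 1, IFN-alpha replicate 4 or mock replicate 4 (up to 0.0703). Noct, a clock-linked phosphatase, was higher by 0.51 ± 0.08 (adjusted p = 0.0422) and lost its call without any of the 8 arrays in turn (up to 0.195). No gene passed in either direction among the serum-induced immediate early genes (35 measured), targets of p53 (13), stress and chaperone genes (21), the cell cycle (24), the fibroblast matrix (19) and housekeeping genes (12), whose list medians ran from -0.01 to 0.12. Their least precise member had a 95% interval of ± 0.89 around its difference. Fos, an immediate early transcription factor, had 9.82, 9.85, 10.22 and 10.87 against 9.22, 9.18, 9.38 and 10.33 (0.66 ± 0.15, adjusted p = 0.206).

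The single probe set called lower belonged to Eogt, which adds N-acetylglucosamine to extracellular EGF domains. It had 4.63, 4.80, 5.16 and 4.75 on IFN-alpha arrays, against 5.18, 5.74, 5.61 and 5.48 on mock arrays, and fell by 0.67 ± 0.10 (SE, adjusted p = 0.0232). All IFN-alpha arrays were below all mock arrays. The other 2 probe sets of the gene differed by -0.37 and 0.07 and were not called, and the call was lost without any array numbered 1, 2 or 4 (adjusted p up to 0.147).

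At 3 h 653 probe sets were higher with IFN-alpha than in mock cells (3.38% of those tested). The times share no array, and the median SD within a group was 0.12 at 3 h with IFN-alpha and 0.13 in mock cells, against 0.36 and 0.40 at 1 h, so the numbers of calls at 3 h and 1 h rest on unequal spread. Of the 66 probe sets higher at 1 h 59 were called higher at 3 h too, which is 89.4% of the 1 h calls and 9.04% of the 3 h calls. The median log2 difference of the 66 was 4.39 at 3 h, against 1.79 at 1 h. Of the 653, 200 (30.6%) were higher in all 4 pairs at 1 h, as were 4.68% of all tested probe sets. The 653 include 59 of the 66, which were chosen on that same 1 h difference. The median difference of the 653 at 1 h was 0.15. The difference between the responses, 3 h minus 1 h, was called for 389 probe sets (2.02%), 357 positive and 32 negative. Among the 66 it was positive for 48, negative for 6 and not called for 12.

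All 14 Ifit, Oas, Mx and viperin genes, 13 of 15 sensors, 45 of 49 other interferon-stimulated genes and 5 of 5 p47 GTPases were higher at 3 h. Oasl2 had 10.89, 10.97 and 10.82 on the IFN-alpha arrays at 3 h, against 2.64, 3.15 and 3.15 on the mock arrays, and its response was larger by 5.54 ± 0.51 than at 1 h (adjusted p = 6.21e-06). Usp18 had 11.53, 11.63 and 11.63 against 2.87, 3.44 and 3.06 (larger by 4.74 ± 0.45) and Iigp1 10.94, 10.93 and 11.01 against 2.81, 2.68 and 3.26 (larger by 5.24 ± 0.35). Several genes without a call at 1 h were higher than in mock cells by then. Among them Ifih1 differed by 4.64, Cmpk2, which makes nucleotides for viperin, by 6.18, Oasl1 by 3.30 and Rsad2 by 7.56. The differences from mock of Ifit1 (7.70 at 3 h, 5.56 at 1 h) and Irf9 (3.84 and 2.98) were not called for a change between the times (adjusted p = 0.252 and 0.0542).

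The 6 probe sets with a smaller response at 3 h belonged to Irf1, Socs3 (3 of them), Bcl3 and Stat3. Irf1 had 7.72, 7.63 and 7.69 on IFN-alpha arrays at 3 h, against 6.71, 6.69 and 6.71 on mock arrays, and its response, 0.98 at 3 h against 3.35 at 1 h, dropped by 2.37 ± 0.26 (adjusted p = 4.74e-05). Socs3 had 8.84, 8.51 and 8.39 against 8.55, 8.58 and 8.31 at 3 h, where the groups overlapped, and its response dropped by 2.02 ± 0.18 from that at 1 h (adjusted p = 4.44e-06). Bcl3 had 6.46, 6.48 and 6.38 against 6.70, 6.51 and 6.24 and its response dropped by 0.88 ± 0.15 (adjusted p = 0.00304). The called Stat3 probe set, 1 of 3 for that transcription factor, differed by 0.04 at 3 h and 0.65 at 1 h, while the probe set used for the gene here did not pass at 1 h (0.14 ± 0.10). Il6 differed by 1.56 at 3 h and 1.99 at 1 h, and the change between the times was not called (adjusted p = 0.585). Its levels at 3 h were 6.45, 6.50 and 6.70 with IFN-alpha and 4.52, 5.38 and 5.08 in mock cells.

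**Figure D4:**
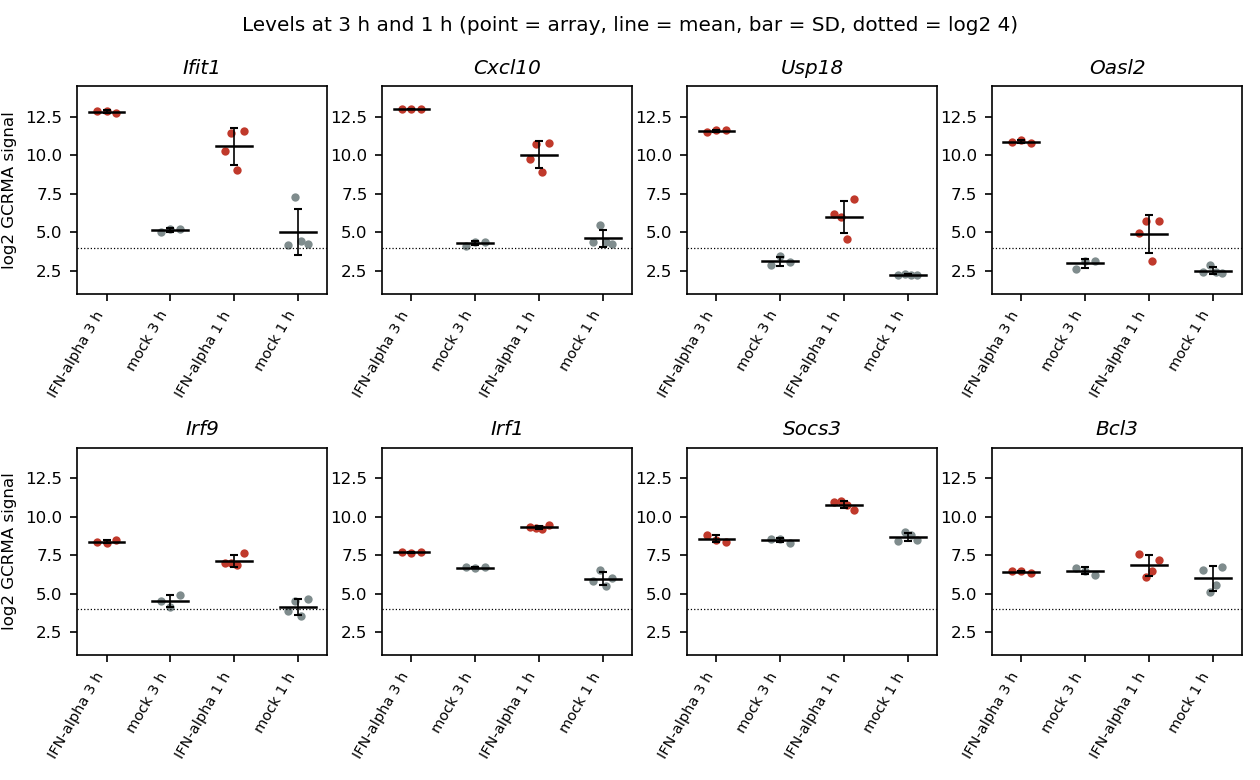
Log2 GCRMA signal of 8 genes in 4 groups, from left IFN-alpha and mock at 3 h, then IFN-alpha and mock at 1 h; points are arrays (3 per group at 3 h, 4 at 1 h), lines means, bars SD and the dotted line log2 4. Irf1, Socs3 and Bcl3 stand closer to mock at 3 h than at 1 h, whereas Usp18 and Oasl2 stand further away.

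IFN-gamma was given at the same dose in U/ml, label and time, and the comparison here is between the 2 interferons directly, since both share the mock arrays. Of 19305 probe sets 151 differed (0.782%), 59 higher with IFN-alpha and 92 lower. Of the 66 that rose with IFN-alpha, 31 were higher than with IFN-gamma, 10 were lower and 25 were not called. The 66 were chosen for a rise on these same IFN-alpha arrays, which tilts the split towards higher. Ifit1 had 10.29, 11.42, 9.02 and 11.59 with IFN-alpha and 4.55, 7.97, 3.08 and 3.91 with IFN-gamma, a difference of 5.70 ± 0.56 (adjusted p = 0.0011). Usp18 had 6.20, 5.96, 4.59 and 7.14 against 2.28, 2.36, 2.21 and 2.24 (3.70 ± 0.35) and Ifit3 6.82, 8.23, 6.88 and 9.30 against 3.50, 4.40, 3.60 and 4.79 (3.74 ± 0.28). In these 3 genes every IFN-alpha array lay above every IFN-gamma array. Rtp4 (2.63), Mx2 (2.26), Oasl2 (2.09), Helz2 (1.94), Samd9l (1.66), Dtx3l (1.31) and Ddx58 (1.53) were also higher with IFN-alpha.

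Irf1, Socs3, Bcl3, Map3k8 and Cxcl9 were lower with IFN-alpha than with IFN-gamma. Irf1 had 9.34, 9.26, 9.19 and 9.45 with IFN-alpha and 11.33, 10.81, 11.10 and 11.74 with IFN-gamma, a difference of -1.93 ± 0.21 (adjusted p = 0.00175). Socs3 had 10.94, 11.02, 10.78 and 10.44 against 12.59, 12.92, 12.67 and 12.87 (-1.97 ± 0.13, adjusted p = 0.000205). Cxcl9, which did not pass against mock, had 2.66, 4.44, 2.53 and 2.62 with IFN-alpha and 5.87, 8.08, 5.41 and 6.67 with IFN-gamma (-3.45 ± 0.36). In Irf1 and Socs3 every IFN-gamma array lay above every IFN-alpha array. Irgm2, Igtp, Irgm1 and Iigp1 were not called between the interferons and differed by -0.66 ± 0.16, -0.78 ± 0.27, -0.73 ± 0.22 and -1.16 ± 0.26. Cxcl10, with a mean of 10.04 with IFN-alpha and 9.12 with IFN-gamma, was not called either (0.92 ± 0.28, adjusted p = 0.273).

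**Figure D5:**
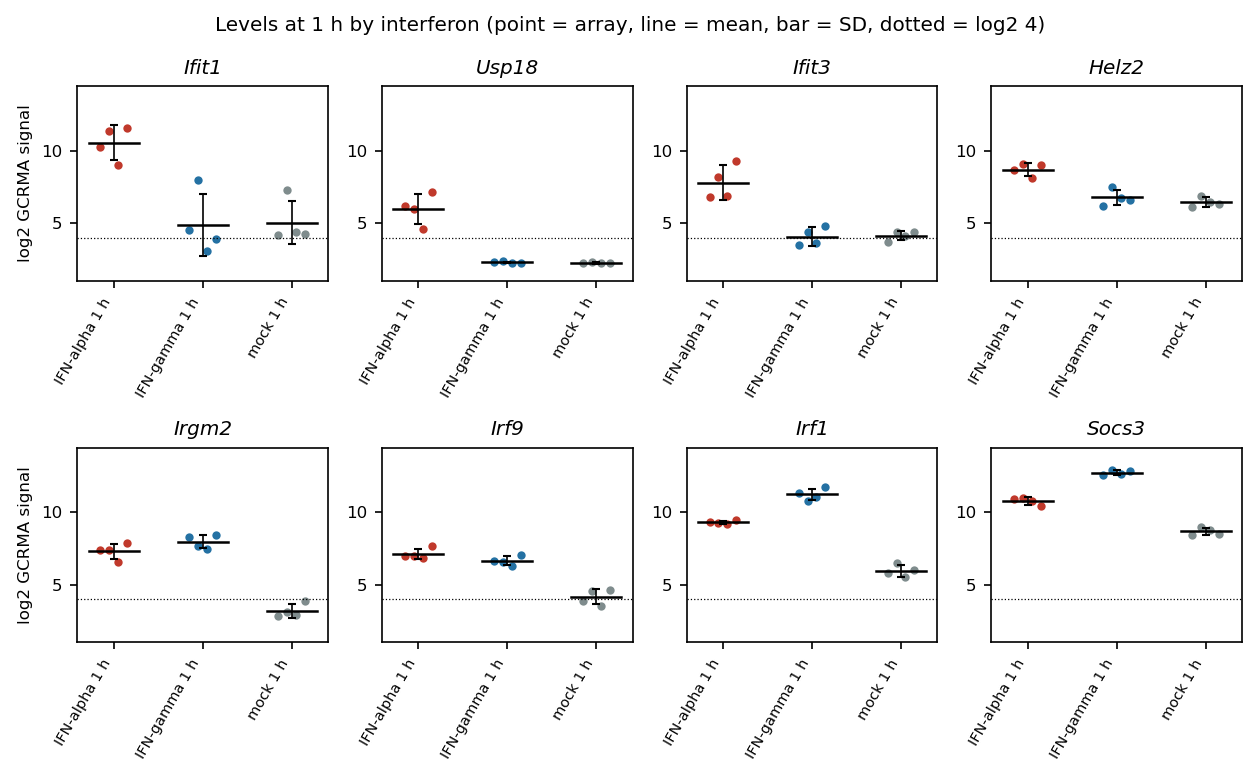
Log2 GCRMA signal of 8 genes at 1 h, from left IFN-alpha, IFN-gamma and mock; points are the 4 arrays of a group, the line their mean, the bar their SD and the dotted line log2 4. Ifit1, Usp18, Ifit3 and Helz2 are higher with IFN-alpha than with IFN-gamma, and Irf1 and Socs3 are higher with IFN-gamma than with IFN-alpha.

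Mock cells without 4sU give a further view of the level without interferon, from 3 arrays at 1 h. They differ from the IFN-alpha arrays in 4sU as well as in interferon. Their excess of the 3′ over the 5′ beta-actin signal was 0.88, 2.22 and 3.31 on replicates 1 to 3. Its part in their levels was not tested. Irf1 had 5.76, 6.18 and 5.68, Irf9 3.86, 4.69 and 4.41, Socs3 8.46, 8.57 and 8.64 and Cxcl10 4.36, 5.42 and 4.29 on them, all below every IFN-alpha array at 1 h. Not every gene that rose separated in this way. Csrnp1 and Noct had 8.11, 7.30 and 7.30 and 11.07, 11.27 and 11.62 in mock cells without 4sU, reaching into or above the range of the IFN-alpha arrays (8.23, 7.54, 8.09 and 8.44 and 11.12, 11.21, 10.70 and 11.13). The highest mock array without 4sU also lay above the lowest IFN-alpha array for Pnp, Parp9, Oasl2, Rnf213, Bcl3, Lgals3bp, Xaf1 and Gbp3. For Oasl2 these arrays were both at 3.16, below background, and for Parp9 they were at 5.91 and 5.90, so that these genes barely overlapped. Against the labelled mock arrays Pnp, Parp9 and Oasl2 had shown no overlap.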

How the data were processed

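Total cellular RNA of NIH-3T3 cells was measured on 24 1-colour Affymetrix arrays. The authors deposited log2 values per probe set, summarised with GCRMA per the submitters' processing notes; its version, and whether all arrays went through it together, are not given in the sources used here. No further transformation or normalization was applied. Of 45101 probe sets 64 controls were left out, and 19305 of the other 45037 exceeded log2 4 on at least 3 of the 24 arrays. Symbols came from the platform annotation, updated through Entrez IDs to RefSeq's names of GRCm38.p6, and 16890 probe sets had a single symbol, 521 several and 1894 none, for 9421 genes in all. Each gene was read from its brightest single-symbol probe set, by the mean over 24 arrays. Items without a value, such as Isg15, are not analysed here.

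The 12 arrays of IFN-alpha, IFN-gamma and labelled mock cells at 1 h were fitted with limma 3.58.1 (lmFit and eBayes, in R 4.3.3, files read with data.table, version 1.17.8), with a mean per group and the replicate number as a block, which left 6 residual degrees of freedom. The same fit on the 9 arrays of 3 h left 4, and the difference between the times came from 21 arrays with the block within each time. Tests were two-sided, and p-values were adjusted over the 19305 probe sets by the Benjamini-Hochberg method. The replicate numbers come from the labels, which do not say that they mark a shared culture or day. They were taken as pairing the arrays because every same-numbered pair's deviations from the group means correlated above 0.1 (0.642, 0.885, 0.465 and 0.865 for IFN-alpha and mock at 1 h). The pairing was less clear at 3 h. There replicate 1 of IFN-alpha and of mock correlated at 0.297 and 0.128 with IFN-gamma replicate 1, and better with an IFN-gamma array of another number. The labels do not say that replicates are separate cultures, so the p-values rest on a spread between arrays that could be technical. The number of arrays limits the precision. The scripts were tested on simulated data with 200 changed probe sets.

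Named were up to 30 rising and 10 falling called genes of the largest difference whose pairs all moved one way, up to 4 members of each of 19 gene lists with the largest absolute difference, and a fixed set. Eif2ak2, Csrnp1, Rnf213, Lgals3bp, Pnp and Noct, the called probe sets of Gbp2, Stat3 and Samhd1 that are not their brightest, and H2-K1 and B2m were added after their values were seen. The members, lists and tests were chosen with earlier results of these data known. Promoter windows were RefSeq's.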

Additional observations from a re-analysis of the deposited data

Results flagged for a closer look

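Of 202 groups of 4 arrays among the named genes, 19 held an array that stood far from the other 3 by Dixon's test, where chance gives about 1 in 20. Mock replicate 2 accounted for 10 of them. It was the high array, in log2 units, for Ifit1 (7.27), Cxcl10 (5.45), the GTPases Iigp1 (3.83) and Gbp7 (4.39), Oasl2 (2.87), Rsad2 (2.78), Slfn8 (3.28), and Cmpk2 (2.95), and it was the low array for the immunoproteasome subunit Psmb9 (3.24) and the ISG15 ligase Herc6 (3.11). Several of these values lie below background. The beta-actin 3′ minus 5′ difference was 2.99 on the same array, and its part in these levels was not tested. Among IFN-alpha arrays, replicate 2 was high for Cxcl9 (4.44), the ISG15-conjugating enzyme Ube2l6 (3.60) and Ifih1 (2.82). IFN-alpha replicate 4 was high for the checkpoint ligand Cd274 (4.51), Irf7 (3.51) and Stat3 (9.24), and IFN-alpha replicate 1 for the stress gene Sesn2 (6.56). Mock replicate 3 was low for Cd274 (2.42), and mock replicate 4 high for Fos (10.3).

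The response to IFN-alpha differed between 3 h and 1 h, by the test of that difference, for 33 of the named genes called at 1 h. As the 3 h response minus the 1 h response, it was 5.54 for Oasl2, 5.24 for Iigp1, 4.79 for Slfn8, 4.74 for Usp18, 4.38 for Ifi47, 4.37 for Parp14, 4.32 for Gbp3, 4.15 for Ifit3 and 4.01 for Igtp. It lay between 3 and 4 for Rnf213 (3.83), Parp9 (3.57), Irgm2 (3.45), Cxcl10 (3.28), Xaf1 (3.27), Samd9l (3.27), Trim21 (3.21) and Tor3a (3.02). It was smaller for Rtp4 (2.98), Dtx3l (2.97), Ddx58 (2.96), Mx2 (2.83), Eif2ak2 (2.75), Tap1 (2.53), Helz2 (2.48), Irgm1 (2.19), Daxx (2.17), Lgals3bp (1.61), Pnp (1.29) and Trim25 (1.10). It was 0.70 for Eogt, whose level was lower than in mock cells at 1 h. It was negative for Bcl3 (-0.88), Socs3 (-2.02) and Irf1 (-2.37).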

How the results depend on the processing

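The paired analysis, with the replicate number as a block, called 66 probe sets higher and 1 lower. With no replicate block the same 12 arrays gave 20 higher and 0 lower (176 at an unadjusted p under 0.05 in either direction, in limma), all 20 among the 66, and 24 arrays gave 50 higher, 44 of them among the 66, and 0 lower. The block on the 8 arrays of the pair of groups alone gave 40 and 0, on 21 arrays of both times 120 and 15, and with array weights 104 and 7. A trend and robust prior gave 86 and 0, raising values below log2 4 to 4 gave 40 and 3, no filter 33 and 2, and a filter that asked for a signal above log2 6 on at least 3 of the 8 arrays gave 46 and 0. Quantile normalization (65 and 1) and median centring (68 and 1) stayed within 1.5 times. On 21 arrays lower probe sets made up 11.1% of the calls, against 1.49%. Leaving out 1 array or 1 replicate number gave 38 to 72 higher and 0 to 3 lower. It was 43 higher without mock replicate 4, 38 without replicate number 1 and 42 without replicate number 4. With no replicate block on 24 arrays the probe sets called between IFN-alpha and IFN-gamma went down to 70, against 151 with it, those higher at 3 h to 295, against 653, and those that differed between the times to 184, against 389 (440 with array weights by time). Some settings used fewer arrays or tested more probe sets, and why the counts moved was not tested for any of them.

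Of 39 named genes called, none changed direction under any of up to 24 alternatives, 10 kept the call in all of them and 29 lost it in at least 1. Without the block on 12 arrays 13 of the 38 higher genes kept it, and on 24 arrays 28. Ifit1 was lost without the block on 12 arrays (adjusted p = 0.147) and with no filter (0.0569). Raising values to log2 4 removed Usp18, Iigp1, Oasl2, Mx2, Ifi47, Tap1, Parp14, Slfn8 and Gbp3, whose mock levels lie below it, among 15 genes. Mx1 passed in 6 of 23 alternatives (24 arrays without the block, 21 with it, array weights, the trend and robust prior, and without IFN-alpha replicate 3 or replicate number 3), and 12 of 62 named genes not called passed in at least 1 alternative. Signal over background limits genes such as Irf7, Ifih1 and Oasl1, which lay near the lowest values on most 1 h arrays.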

Other observations

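Several genes that did not pass the test at 1 h were higher with IFN-alpha in all 4 pairs, as were 4.68% of all tested probe sets. Gbp7, a guanylate-binding protein, differed by 1.34 ± 0.30 (SE, adjusted p = 0.201) and Cebpd, a transcription factor of the acute phase response, by 0.92 ± 0.16 (adjusted p = 0.0709). Myd88, the adaptor of Toll-like receptors, differed by 0.72 ± 0.14 (adjusted p = 0.0941) and Zfp36, which destabilises cytokine mRNA, by 0.73 ± 0.17 (adjusted p = 0.233). At 3 h Gbp7 was higher by 6.22 and Myd88 by 1.65, while Cebpd differed by 0.08 (adjusted p = 0.57) and Zfp36 by 0.50 (adjusted p = 0.054). Erap1, which trims peptides for MHC class I, was lower in all 4 pairs at 1 h, as were 7.74% of all tested probe sets. It did not pass at 1 h (-0.48 ± 0.11, adjusted p = 0.213) and was higher by 0.49 at 3 h.

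Of the 44 genes called higher 42 have a position in the RefSeq table, and 9 of them lie within 5 genes of another. These groups are Igtp and Irgm2 on chromosome 11, Parp14, Dtx3l and Parp9 on chromosome 16, Ifit3 and Ifit1 on chromosome 19, and Gbp3 and Gbp2 on chromosome 3. Probe sets of a gene did not always behave alike: of 18 called genes with more than 1 kept probe set, all were called for 4 and only some for 14. Among these, the probe sets without a call differed by 0.74 for Xaf1, 0.71 and 0.96 for Eif2ak2, and 1.46 and 0.34 for Tor3a. They differed by 0.42 for Parp14, 1.00 for Ddx58 and 1.68 for Trim21. Samhd1, which degrades nucleotides, was called by 1 of its 3 probe sets (1.34 ± 0.20, adjusted p = 0.0248), whereas the other 2 differed by 0.38 and 0.20.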
